A study of Mus musculus with 75 samples.

Results

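The liver sulfotransferase genes Sult2a1, Sult2a2, Sult2a5, Sult2a8, Sult1e1, Sult3a1, Sult1a1 and Sult1d1, were followed from 3 weeks to 10 months of age in mouse liver RNA-seq. They are 8 of the 27 Sult genes, pseudogenes included, in a table of 55536 genes, and were taken by gene symbol. They were chosen by their measured counts in these libraries, under the working name of sulfotransferases lost after weaning, so the change in vehicle livers from 3 weeks to 5 months is described here and not tested. The name does not hold for Sult2a8. The set does not behave as 1 group. Sult2a1, Sult2a2 and Sult2a5 went from levels between 7.87 and 99.3 CPM in 3-week vehicle livers to almost none. CPM is a gene's counts scaled to the library's total, on the usual per-million scale. Sult1e1 went from a low level to a lower one, and Sult1a1 and Sult1d1 went to lower levels but stayed well expressed. Sult2a8 was higher in most 5-month vehicle livers, though not in most high-risk livers or most tumors. Sult3a1 was close to the detection limit at every age and was never testable.

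All mice were wild-type C57Bl/6 and labelled male. Exposed mice got tributyltin (TBT), an organotin compound, from their mothers, who drank it until weaning at a daily 0.5 mg/kg of body weight, given as 3.07 µM; vehicle mice got none. At 3 weeks there were 8 vehicle libraries (7 mice, 1 of them sequenced as 2 libraries that were summed) and 8 TBT libraries. The 5-month livers came from 8 vehicle mice and from TBT mice labelled low risk (16) or high risk (10). The 10-month libraries were 6 vehicle livers, 5 low-risk livers, 6 uninvolved livers labelled high risk, 7 tumors and 1 vehicle library labelled as a tumor. The 7 tumors came from TBT mice and were labelled as tumor in place of a low or high risk group. How a mouse was assigned to the low-risk or high-risk group is not given in the sources used here, and nothing states whether mice of 1 group came from separate litters, so p-values measure the spread between these livers.

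Sulfotransferases move a sulfonate group from the donor PAPS onto hormones, bile acids and drugs, which makes the products more water soluble and usually ends hormone activity. The Sult2a enzymes act on hydroxysteroids and bile acids, Sult1e1 inactivates oestrogens, Sult1a1 acts on small phenols, Sult1d1 on catecholamines and related amines, and Sult3a1 on aromatic amines. In adult mice several of these genes are expressed more in female than in male liver, under the sex-specific pattern of growth hormone release.

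The 4 Sult2a genes lie in 1 cluster on chromosome 7 (GRCm38, the mm10 build). Sult2a5 (ENSMUSG00000078799) spans chr7:13623967-13670807 on the plus strand, Sult2a2 (ENSMUSG00000070811) chr7:13733505-13779636 on the plus strand, Sult2a1 (ENSMUSG00000078798) chr7:13796246-13837409 on the minus strand and Sult2a8 (ENSMUSG00000030378) chr7:14410686-14446769 on the minus strand. Sult1d1 (ENSMUSG00000029273, chr5:87554645-87569027) and Sult1e1 (chr5:87575969-87591594) are neighbours on the minus strand of chromosome 5. Sult1a1 (chr7:126672865-126676432, minus strand) overlaps Sgf29 on the other strand, and Sult3a1 (chr10:33857721-33879532, plus strand) overlaps Gm47935 on the other strand. The first 60 coding bases of the 4 Sult2a genes are shown because they separate the genes that were nearly absent in most adult livers from Sult2a8: Sult2a1, Sult2a2 and Sult2a5 have the same 60 bases, and Sult2a8 differs from Sult2a1 at 26 of them, given in capitals.
Sult2a1: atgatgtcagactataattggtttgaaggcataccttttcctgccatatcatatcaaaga
Sult2a2: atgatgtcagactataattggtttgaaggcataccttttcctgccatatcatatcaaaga
Sult2a5: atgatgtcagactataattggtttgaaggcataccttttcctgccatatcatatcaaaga
Sult2a8: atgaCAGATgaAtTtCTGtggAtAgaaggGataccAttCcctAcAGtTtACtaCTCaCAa
Over the aligned coding sequence, Sult2a1 is 94.9% identical to Sult2a5, 91.3% to Sult2a2 and 69.2% to Sult2a8. Of all 50-base windows of their transcripts, 33.2% of those of Sult2a1, 62.1% of Sult2a2 and 34.5% of Sult2a5 occur unchanged in another gene, mostly other Sult2a genes, against 1.96% for Sult2a8. The split of reads among Sult2a1, Sult2a2 and Sult2a5 is therefore uncertain, and that between these 3 genes and Sult2a8 is much less so.

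The stretches just upstream of Sult2a5 and Sult2a8 are shown because these 2 genes moved in opposite directions with age. Both come from RefSeq (GRCm38.p6) and hold the bases upstream of a RefSeq start that lie outside annotated exons, and 6 of the 8 genes have a RefSeq promoter entry. Capitals mark matches, on either strand, to the motifs searched: AGGTCA (a nuclear receptor half-site), GTTAAT (an HNF1 half-site), TATAAA, TTCNNNGAA (a STAT site) and IR0, an inverted repeat with no spacer of that half-site or of 2 variants of it that each differ by 1 base. IR0 was added to the search after the sequence was seen. It can overlap AGGTCA, and none of the matches marked here overlap.
Sult2a5, chr7:13623717-13623966, plus strand: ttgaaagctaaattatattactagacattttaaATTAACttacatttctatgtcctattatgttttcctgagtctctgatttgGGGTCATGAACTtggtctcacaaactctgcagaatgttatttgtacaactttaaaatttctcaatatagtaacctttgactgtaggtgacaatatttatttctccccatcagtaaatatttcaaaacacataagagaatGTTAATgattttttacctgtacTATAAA
Sult2a8, chr7:14438562-14438801, minus strand: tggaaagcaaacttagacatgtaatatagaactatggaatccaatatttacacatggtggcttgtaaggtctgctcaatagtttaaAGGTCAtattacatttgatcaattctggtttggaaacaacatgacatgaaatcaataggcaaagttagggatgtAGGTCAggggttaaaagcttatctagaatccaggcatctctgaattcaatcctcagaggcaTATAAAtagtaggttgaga
The Sult2a5 stretch holds GTTAAT at positions -217 and -28 from the RefSeq start, the IR0 element at -167 and TATAAA at -6. The Sult2a8 stretch lies inside the gene, upstream of the second of 2 annotated starts and downstream of the first exon, and the entry for the first start, with 68 bases outside exons (chr7:14446770-14446837), is not shown. The stretch holds AGGTCA at -164 and -90 and TATAAA at -29. Over 250 bases, AGGTCA occurred in 14.02%, GTTAAT in 6.43%, TATAAA in 12.4% and TTCNNNGAA in 7.02% of 32851 RefSeq promoters. IR0 occurred in 14 of them (0.0426%), and Sult2a5 was the only sulfotransferase among the 14. Because the IR0 variants match the Sult2a5 site, its match was fixed beforehand, and nothing is read from that share.

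Library totals ran from 2.83 to 45.4 M counts, and 18 libraries, all of 5-month livers, belonged to sequencing batch 2 (1 vehicle, 10 low-risk and 7 high-risk). Of all libraries, 6 deviated technically, with mitochondrial counts above 10%, more than 35000 detected genes or fewer than 5 M counts. Hepatocyte markers were high in every group (summed CPM of 7 markers from 69850 to 203200). One library did not match its label as male: in 3-week TBT 4, Xist stood at 348 CPM and the sum of 4 Y-linked genes at 7.08 CPM. In low-risk 24 at 5 months Xist stood at 84.6 CPM and that sum at 237 CPM, and elsewhere Xist was at most 8.39 CPM. The uninvolved livers 3 and 6 differed less from each other (SD of log2 ratios 0.148) than the next closest pair of uninvolved livers (0.327) or any pair within another group (0.232 or more), and were counted as 1 sample, although they differed by more than counting noise (chi-square per gene 4.54).

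In vehicle livers, Sult2a1 went from 56.3 to 99.3 CPM at 3 weeks (median 70.7, 7 mice) to between 0 and 0.103 CPM at 5 months. Sult2a2, whose product is a close relative of Sult2a1, ranged from 35.3 to 59.5 CPM at 3 weeks (median 50.4) and reached at most 0.0514 CPM at 5 months. Sult2a5 ranged from 7.87 to 19.4 CPM at 3 weeks (median 13.2) and was at most 0.0513 CPM at 5 months. No 5-month vehicle library came near any 3-week library for these 3 genes. Sult2a8, a bile acid-sulfating enzyme, ranged from 83.6 to 231 CPM at 3 weeks (median 157), and at 5 months 6 of 8 vehicle livers held 480 to 717 CPM while vehicles 4 and 6 held 58.5 and 6.32 CPM. Sult1e1 ranged from 0.309 to 7.47 CPM at 3 weeks and from 0.0513 to 0.668 CPM at 5 months, so its ranges overlapped. Sult1a1 had a mean of 413 ± 65.8 CPM at 3 weeks (SD, n = 7) and 272 ± 91.9 CPM at 5 months (SD, n = 8), and Sult1d1 199 ± 44.5 and 100.5 ± 37.2 CPM. Across all 13927 genes tested in batch 1 of this contrast, 18.9% differed, a value from which nothing is read for the 8 genes because the contrast chose them. Per kilobase of all annotated exons of a gene together, Sult2a1 stood at 74.0 CPM per kb at 3 weeks, Sult2a2 at 64.1, Sult2a8 at 48.9 and Sult2a5 at 12.01. Sult1a1 was above all of them at 274 CPM per kb. For Sult2a8 that length is 3284 bases, while its transcript with the longest coding sequence has 2097. The place of Sult2a8 in this order therefore depends on the length taken, and that of the other 3 on the uncertain split of reads.

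**Figure D1:**
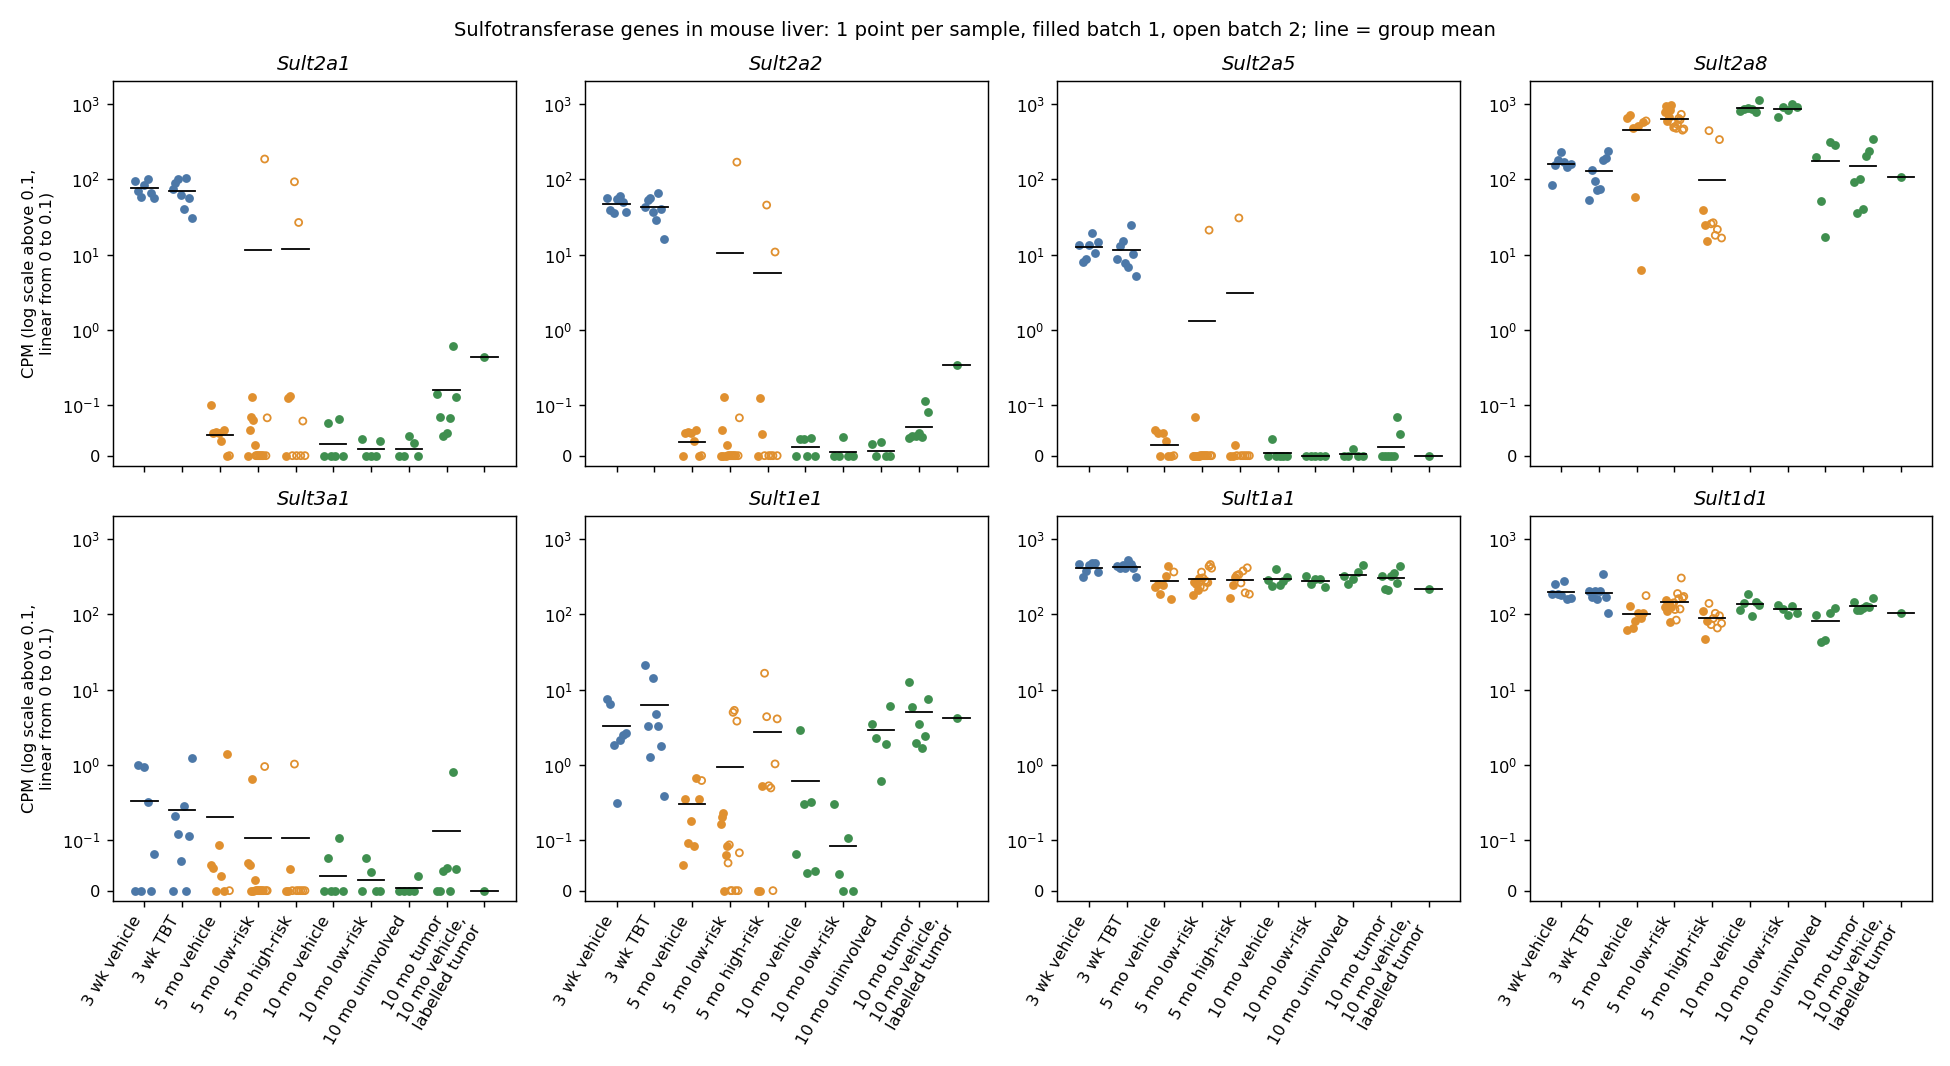
CPM of the 8 sulfotransferase genes (vertical axis, linear from 0 to 0.1 and logarithmic above) in every sample, by group and age (horizontal axis); filled points are sequencing batch 1, open points batch 2, and the line is the group mean. Sult2a1 sits between 30.1 and 103 CPM at 3 weeks and near 0 in adults apart from a few 5-month TBT livers, as do Sult2a2 and Sult2a5 at lower levels, and Sult2a8 is at most 439 CPM in high-risk and at least 446 CPM in low-risk 5-month livers.

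The same age step was tested in TBT livers, which the choice of genes did not use. The 6 low-risk 5-month livers of batch 1 were compared with the 8 livers of the 3-week TBT group by edgeR's quasi-likelihood test, with p-values adjusted over all 14069 genes tested. Log2 fold changes come from library totals rescaled by the TMM method, so they can differ from the ratio of the CPM means. In this comparison 26.2% of all genes changed, and of the 8 sulfotransferases 6 fell, Sult2a8 rose and Sult3a1 was not tested. Sult2a1, Sult2a2, Sult2a5 and Sult1e1 passed the filter on low counts only through the 3-week group, so this count is not read against that share, and their fold changes and adjusted p-values are given as a description.

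Sult2a1 ranged from 30.1 to 103 CPM in 3-week TBT livers (median 67.8) and held 5 counts in all 6 low-risk livers together, a fall of 10.34 on the log2 scale (SE 0.46, adjusted p = 1.63e-10). The pooled counts put it 1644-fold lower, with a 95% interval of 704 to 5063 that covers counting error only. Sult2a2 ranged from 16.02 to 65.4 CPM at 3 weeks and held 3 counts in the 6 low-risk livers, and it fell by 10.25 (SE 0.47, adjusted p = 2.25e-10). Its pooled ratio was 1667 (570 to 8086). Sult2a5 ranged from 5.14 to 24.95 CPM at 3 weeks and held 1 count at 5 months, and it fell by 9.44 (SE 0.64, adjusted p = 2.86e-08), with a pooled ratio of 1347 (241 to 53243). The 2 ages did not overlap for any of these 3 genes. Of all genes tested 5.42% showed that pattern downward, and nothing is read from that share for genes that were tested because they were high at 3 weeks.

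Sult2a8 went the other way. It averaged 128 ± 66.7 CPM at 3 weeks (SD, n = 8) and 791 ± 149 CPM in the 6 low-risk livers (SD, n = 6), a rise of 2.67 (SE 0.34, adjusted p = 4.29e-05), and every 5-month liver was above every 3-week liver, as for 2.89% of genes. Because of it, the counts of all Sult2a genes together were higher at 5 months by 1.71 on the log2 scale (SE 0.21), with the make-up of the family turned over. Sult2a8 supplied a median of 46.6% of Sult2a counts in 3-week TBT livers and 56.4% in 3-week vehicle livers, and 99.9% and 99.7% in 5-month low-risk and vehicle livers. The other Sult2a genes summed to medians of 120 and 129 CPM at 3 weeks and 0.832 and 0.961 CPM at 5 months.

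**Figure D2:**
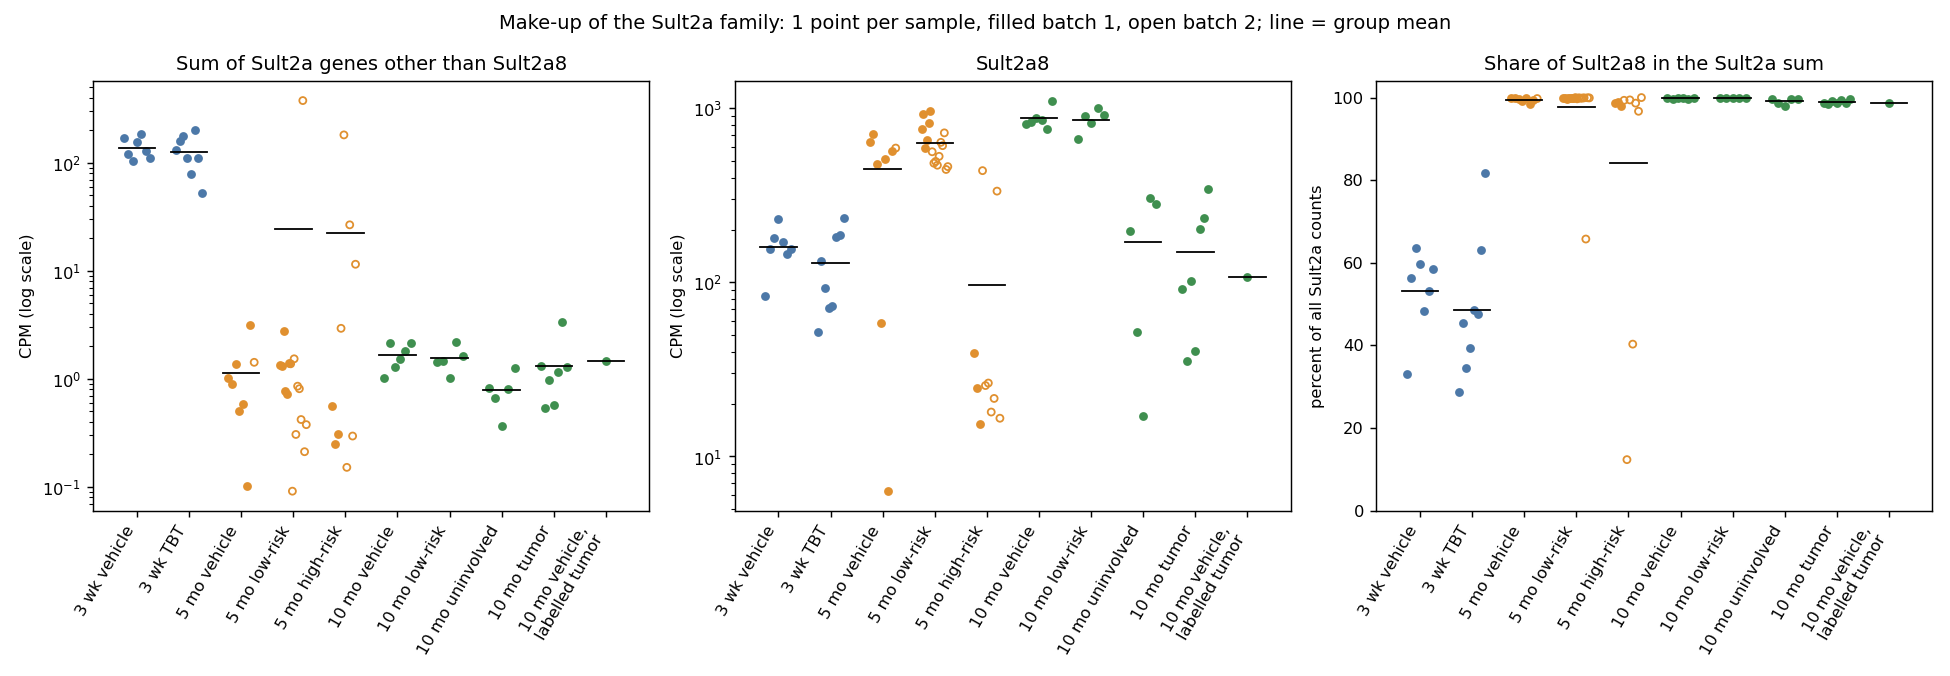
Summed CPM of the Sult2a genes other than Sult2a8 (left panel), CPM of Sult2a8 (middle panel) and the percent of Sult2a counts that were Sult2a8 (right panel), 1 point per sample, by group and age. The percent has medians of 46.6 and 56.4 at 3 weeks and is above 98 in the median of every adult group. The lowest adult livers are low-risk 24 at 65.8, high-risk 13 at 40.3 and high-risk 10 at 12.4.

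Sult1e1 ranged from 0.383 to 21.4 CPM in 3-week TBT livers (median 3.31), with TBT 1 at 21.4 and TBT 4, the library with high Xist, at 14.4. It averaged 0.127 CPM in the 6 low-risk livers and fell by 5.39 (SE 0.93, adjusted p = 0.0006), and was 53.0-fold lower in pooled counts (32.0 to 95.1, from 15 and 878 counts). Sult1a1 averaged 423 ± 60.6 CPM at 3 weeks (SD, n = 8) and 245 ± 43.0 CPM in low-risk livers (SD, n = 6), a fall of 0.68 (SE 0.12, adjusted p = 0.000701). Sult1d1 averaged 193 ± 66.4 CPM at 3 weeks and 121 ± 25.6 CPM at 5 months and fell by 0.57 (SE 0.19, adjusted p = 0.0361), but the call held in 9 of the 14 fits that left out 1 liver (adjusted p 0.0142 to 0.0873). The fits without low-risk 3, 6 or 7 or without TBT 1 or 3 lost it. Without TBT 4, the library that did not match its sex label, the same 7 genes tested were called, with Sult2a1 at -10.41 and Sult2a8 at 2.54. Sult1a1 and Sult1d1 thus changed by less than 1 log2 unit, and Sult2a1, Sult2a2, Sult2a5 and Sult1e1 by more than 5.

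Other liver genes with known sex bias moved over the same step. Of 10 tested female-biased genes all 10 fell (median -6.73, against 0.06 over all genes), among them Cyp2b9, a steroid-hydroxylating P450 (111 ± 19.2 to 0.214 ± 0.272 CPM, n = 8 and 6), and the transporter gene Slc22a27 (37.7 ± 7.21 to 0.262 ± 0.194 CPM). Most of the 10 were near 0 at 5 months and passed the filter on low counts through the 3-week group, so nothing is read from their count and median. Abcd2 (106 to 27.1 CPM, adjusted p = 0.000167) and Cyp17a1 (111 to 34.6 CPM, adjusted p = 0.0136) were well expressed at both ages. All 12 male-biased genes rose, with a median of 5.04, some of them, such as Cyp4a12a, from near 0, so nothing is read from this count and median. The list of sulfotransferase regulators had 4 genes higher and 2 lower of 15 tested. Among them, the growth hormone receptor Ghr rose by 0.92 (SE 0.14, adjusted p = 0.00013), while Cux2, a factor expressed more in female liver, fell by 3.03 (SE 0.39, adjusted p = 3.76e-05). Of the cell type markers, 4 of 6 macrophage, 4 of 5 endothelial and 3 of 7 stellate cell genes were lower at 5 months, 2 of 5 cholangiocyte genes were higher, and of 7 hepatocyte genes 1 was higher and 2 were lower. Of all genes tested, 13.7% were higher and 12.5% lower at 5 months. These lists were written with earlier results of these data known, and their part in the sulfotransferase levels was not tested.

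Outside the 8 genes, 4 other sulfotransferases were tested for age, and 2 rose and 2 fell, where 13.7% of all genes were higher and 12.5% lower. Sult1b1, which acts on thyroid hormones and phenols, rose from 10.8 ± 1.74 to 27.5 ± 14.3 CPM (1.43, SE 0.21, adjusted p = 0.000141), and Sult5a1 from 1.68 ± 0.704 to 7.01 ± 2.75 CPM (2.14, SE 0.33, adjusted p = 0.00016). Sult2a3 fell from 2.22 ± 0.982 CPM to 0 counts in the 6 low-risk livers, and Sult1c2 from 10.2 ± 2.78 to 5.39 ± 2.44 CPM (adjusted p = 0.0235). Sult2a3 passed the filter on low counts only through the 3-week group. Its fall is therefore a description, and nothing is read from the count of genes that fell. Of 12 genes for the supply and removal of the sulfate donor, only Bpnt1, a phosphatase that breaks down the spent donor, changed (0.47, SE 0.11, adjusted p = 0.00624).

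At 3 weeks, directly after exposure, none of the 7 testable sulfotransferases differed between TBT and vehicle, and neither did any of the 14050 genes (0%, edgeR; 474 genes had an unadjusted p under 0.05, and DESeq2 called 0). Sult2a8 was 128 ± 66.7 CPM in TBT (SD, n = 8) and 160 ± 44.0 CPM in vehicle livers (SD, n = 7), a log2 difference of -0.26 (SE 0.35). Sult2a1 differed by -0.09 (SE 0.22), Sult2a2 by -0.15 (SE 0.21), Sult2a5 by -0.10 (SE 0.29), Sult1a1 by 0.06 (SE 0.10) and Sult1d1 by -0.03 (SE 0.18). Sult1e1 was 0.94 (SE 0.72) higher in TBT livers, the widest interval of the 7. All adjusted p-values were 0.999.

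From 5 months the high-risk livers stood apart in Sult2a8. In low-risk livers Sult2a8 ranged from 446 to 972 CPM with a median of 602 (n = 16). High-risk livers ranged from 15.3 to 439 CPM with a median of 25.2 (n = 10): 8 of them lay between 15.3 and 39.2 CPM, high-risk 22 was at 335 CPM and high-risk 1 at 439 CPM. Even these 2 were below every low-risk liver, a lack of overlap downward that 0.203% of all genes showed. Sult2a8 was lower in high-risk than in low-risk livers, with a log2 difference of -3.02 (SE 0.68, adjusted p = 0.000696, with batch as a covariate). Within batch 1 the difference was -5.21 (adjusted p = 0.0155, 3 against 6 livers, edgeR) and within batch 2 it was -2.31 (adjusted p = 0.0349, 7 against 10 livers, edgeR). In bulk liver, fewer cells that express a gene and less RNA per cell cannot be told apart.

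Sult1d1 averaged 87.8 ± 25.7 CPM in high-risk livers (range 47.4 to 139) and 144 ± 51.5 CPM in low-risk livers (range 78.8 to 301), which overlap, and it was lower in high-risk livers (-1.03, SE 0.18, adjusted p = 3.08e-05). Within batch 2 the difference was -1.14 (adjusted p = 0.00165), and within batch 1 the difference of -0.91 missed the threshold (adjusted p = 0.0625). Sult1a1 averaged 279.8 ± 84.6 and 293 ± 79.9 CPM, with a difference of -0.38 (SE 0.17, adjusted p = 0.0718) that passed in 5 of 26 fits with 1 liver left out. So 2 of the 3 testable sulfotransferases were lower in high-risk livers, where 38.9% of all 14773 genes differed in either direction and 18.5% were lower.

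Against vehicle, high-risk livers were lower in Sult2a8 (-2.71, SE 0.81, adjusted p = 0.0213) and in Sult1d1 (-0.77, SE 0.22, adjusted p = 0.017), again 2 of 3 genes, with 15.8% of all genes called. By CPM, Sult1d1 averaged 87.8 ± 25.7 in high-risk and 100.5 ± 37.2 in vehicle livers, a smaller difference with overlapping ranges. The fitted value also reflects the batch covariate and the TMM factors, with medians of 1.19 in high-risk and 0.905 in vehicle livers. Sult2a8 overlapped here because of vehicles 4 and 6, at 58.5 and 6.32 CPM. Sult1a1 differed by -0.52 (SE 0.21, adjusted p = 0.0926), with CPM means of 279.8 in high-risk and 272 in vehicle livers. Only vehicle 8 represents vehicle in batch 2. Without it edgeR's adjusted p was 0.0701 for Sult2a8 and 0.0952 for Sult1d1, and within batch 1 it was 0.0877 (log2 difference -4.46) and 0.36 (-0.58). Sult2a8 also missed the threshold without the deviating libraries (-2.36, adjusted p = 0.0659) and with no filter on low counts (-2.69, adjusted p = 0.0819), and Sult1d1 with no batch covariate (-0.55, adjusted p = 0.085). Low-risk and vehicle livers did not differ in any of the 3 genes, and 0% of genes were called (edgeR; 934 of 14773 genes had an unadjusted p under 0.05, and DESeq2 called 78), with 0.31 (SE 0.65) for Sult2a8, -0.14 (SE 0.19) for Sult1a1 and 0.27 (SE 0.20) for Sult1d1.

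Markers of other cell types moved with these groups. The summed CPM of 6 cholangiocyte markers ranged from 33.1 to 448 in high-risk livers (median 331), from 25.1 to 236 in low-risk livers (median 43.7) and from 30.6 to 256 in vehicle livers (median 39.5). All 6 were detected, and 4 of the 6 were higher in high-risk than in low-risk livers, led by Spp1 (2.19, SE 0.38, adjusted p = 3.1e-05). In high-risk 1 and 22, the livers with the most Sult2a8, the cholangiocyte sum was 75.0 and 33.1 CPM, and in the other high-risk livers it was between 182 and 448 CPM. In vehicles 4 and 6, the vehicle livers with the least Sult2a8, it was 112 and 256 CPM, and in the other vehicle livers it was between 30.6 and 72.0 CPM. The hepatocyte marker sum had a median of 132600 CPM in the high-risk group and 132300 CPM in the low-risk group, and 4 of its 7 genes were lower (median -0.51). The summed CPM of 7 stellate cell markers had a median of 859.8 in the high-risk group and 415.7 in the low-risk group, with 4 of the 7 higher and 1 lower. The part of these markers in the Sult2a8 difference was not tested.

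**Figure D3:**
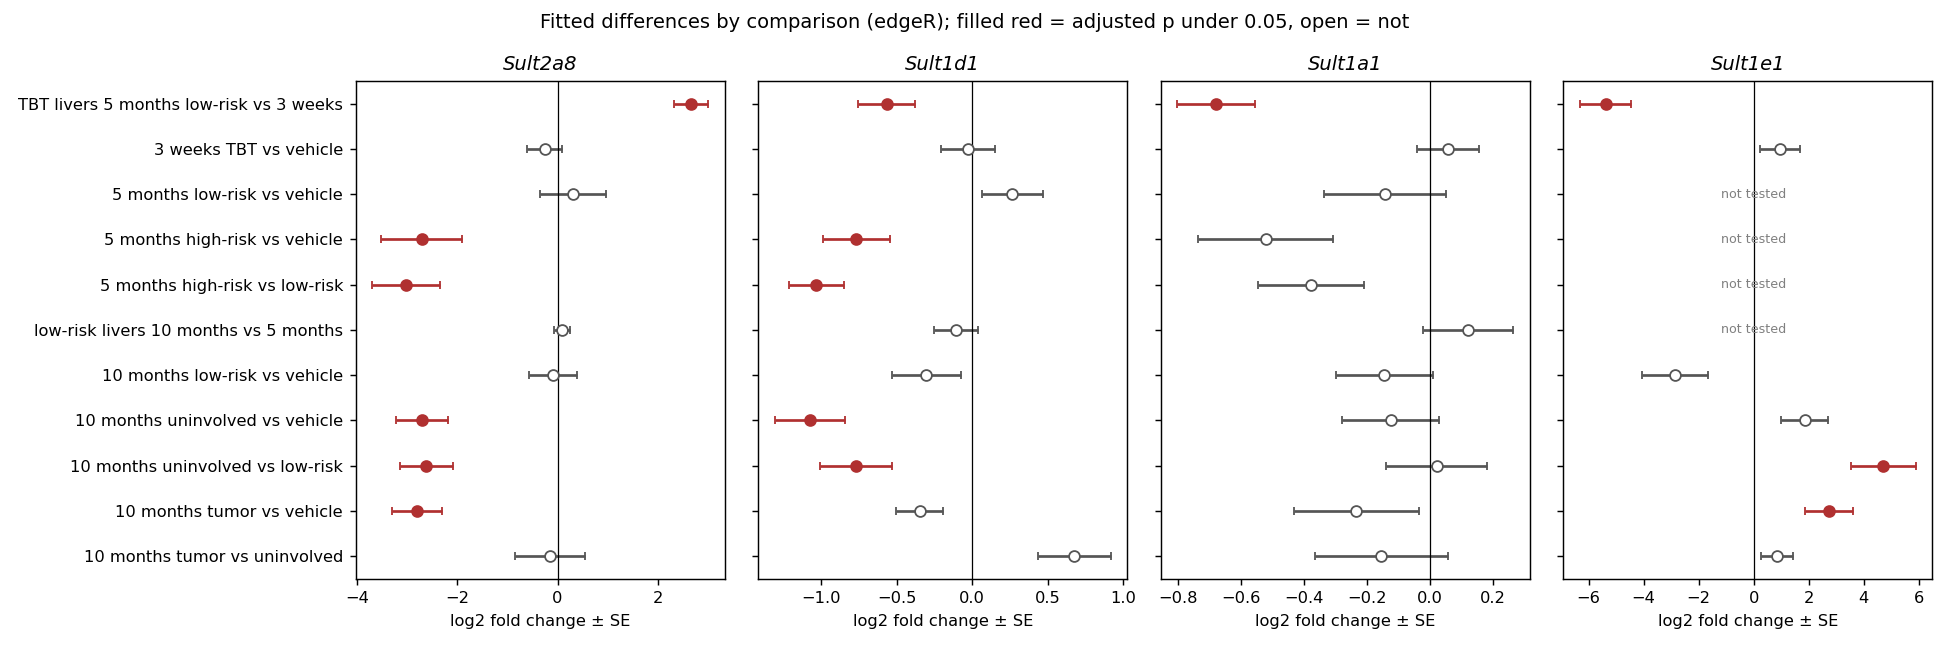
Log2 fold change with its standard error (horizontal axis) of Sult2a8, Sult1d1, Sult1a1 and Sult1e1 in each comparison in which the gene was tested (vertical axis); filled red points have an adjusted p under 0.05. Sult2a8 is at -3.02, -2.71, -2.62, -2.71 and -2.81 in the 5 comparisons of high-risk liver or tumor with low-risk or vehicle liver. It is at 2.67 for age, and between -0.26 and 0.31 in the comparisons of TBT or low-risk livers with vehicle.

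Sult2a1, Sult2a2 or Sult2a5 stood above 1 CPM in a few 5-month TBT livers, and not always together. The ages are different mice, so a return after a loss was not observed. High-risk 10 held 92.2 CPM of Sult2a1, 45.3 of Sult2a2 and 30.6 of Sult2a5. Low-risk 24 held 185, 168 and 21.1 CPM. High-risk 13 held 26.6 CPM of Sult2a1 (376 counts) and 0 counts of Sult2a2 and Sult2a5, and high-risk 22 held 10.8 CPM of Sult2a2 (157 counts), 1 count of Sult2a1 and 0 of Sult2a5. These 4 livers are all of batch 2, and 2 of them have technical marks: low-risk 24 carries the high Xist value and high-risk 10 is one of the 6 deviating libraries. The deposited counts were adjusted for batch, and the split of reads among these 3 genes is uncertain. The part of either in these values was not tested. In the other 15 low-risk livers Sult2a1 was at most 0.13 CPM, in the other 8 high-risk livers at most 0.132 CPM, and in the 8 vehicle livers at most 0.103 CPM. With 2 of 10 high-risk and 1 of 16 low-risk livers above 1 CPM of Sult2a1, none of these genes passed the filter on low counts at 5 months, and none was tested. Leaving out low-risk 24 and high-risk 10 kept both high-risk calls against low-risk, with Sult2a8 at -2.90 (adjusted p = 0.0021) and Sult1d1 at -0.89 (adjusted p = 0.000119).

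Sult1e1 was also uneven at 5 months and was not tested there. High-risk 1 held 16.5 CPM, and the other high-risk livers ranged from 0 to 4.37 CPM with 3 of them at 0. Low-risk livers had a median of 0.082 CPM, with low-risk 24 at 3.81, low-risk 20 at 4.98 and low-risk 21 at 5.30 CPM, again all in batch 2. Sult3a1 had at most 1.41 CPM in any library (4 counts in vehicle 9, the shallowest library), and 1.03 and 0.953 CPM in high-risk 10 and low-risk 24.

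Among the gene lists, the female-biased list was higher in high-risk than in low-risk livers in 8 of 10 tested genes (median 2.70 against -0.01 over all genes). Cyp3a44 was at 2.64 (SE 0.46, adjusted p = 3.6e-05) and Cyp2a4 at 3.99 (SE 0.78, adjusted p = 0.000163). The list summed to a median of 71.1 CPM in low-risk and 453.8 CPM in high-risk livers. Its low genes may have passed the filter on low counts through the high-risk group, so nothing is read from its count and median. The male-biased list was lower in 10 of 12 (median -1.99), with the P450 gene Cyp2d9 at -2.08 (SE 0.24, adjusted p = 9.13e-08) and the organic anion carrier Slco1a1 at -3.83 (SE 0.54, adjusted p = 2.07e-06). Of 15 regulators, 8 were lower and 0 higher, led by Ghr (-1.10, SE 0.13, adjusted p = 1.55e-07) and the bile acid receptor Nr1h4 (-0.90, SE 0.14, adjusted p = 4.77e-06). Of 12 donor genes 4 were lower, among them Cdo1, a first step from cysteine towards sulfate (-0.81, SE 0.13, adjusted p = 5.96e-06), and Bpnt1. Sult1b1 (-1.09, SE 0.23, adjusted p = 0.000239) and Sult5a1 (-1.33, SE 0.37, adjusted p = 0.00419) were lower too, 2 of the 4 other sulfotransferases tested. Among the 14773 genes tested, 18.5% were lower and 20.3% higher in high-risk than in low-risk livers.

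At 10 months Sult2a8 separated the livers of tumor-bearing mice from both control groups. Vehicle livers ranged from 766 to 1110 CPM (median 846, n = 6), and the 5 low-risk livers held 669, 821, 910, 914 and 999 CPM. The 5 uninvolved samples held 17.2, 51.8, 199, 282 and 307 CPM, all below every control. Sult2a8 was lower in uninvolved than in low-risk livers (-2.62, SE 0.53, adjusted p = 0.000891) and than in vehicle livers (-2.71, SE 0.52, adjusted p = 0.000452). A complete separation downward was shown by 6.74% and 5.38% of all genes. The call held in each fit with 1 liver left out, 10 against low-risk and 11 against vehicle. Uninvolved libraries were deeper (34.8 to 44.6 M counts) than low-risk and vehicle libraries (26.2 to 33.5 M). They had 24676 or more detected genes, against at most 22578, and 4.20% or more mitochondrial counts, against at most 3.83%. The Y-linked sum was 102, 101 and 94.0 CPM in uninvolved 3, 6 and 12, and elsewhere in these groups at least 174 CPM. Uninvolved 3 and 6 (summed) and 12 had the least Sult2a8 and Sult1d1. The part of these differences was not tested.

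Sult1e1 moved the opposite way. The uninvolved samples held 0.617, 1.92, 2.25, 3.52 and 6.04 CPM, and the low-risk livers 0, 0, 0.0323, 0.107 and 0.3 CPM, with no overlap (23.2% of genes separated upward). It was higher by 4.71 (SE 1.17, adjusted p = 0.00363), and 28.3-fold by pooled counts (16.4 to 53.4, from 573 and 13 counts). It was testable mainly through the uninvolved samples, where it was high, so neither this call nor the lack of overlap is read against the shares over all genes. Against vehicle the difference of 1.84 (SE 0.86) missed the threshold (adjusted p = 0.0784). Vehicle 2 held 2.87 CPM and the other 5 vehicle livers at most 0.324 CPM, and without vehicle 2 the difference was 3.81 (adjusted p = 0.000484).

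Sult1d1 in the uninvolved samples was 42.3, 45.7, 96.3, 105 and 120 CPM, and in low-risk livers 98.9 to 130 CPM. It was lower than in low-risk livers (-0.77, SE 0.24, adjusted p = 0.0125) and than in vehicle livers, which held 95.7 to 184 CPM (-1.08, SE 0.23, adjusted p = 0.000903). Of the uninvolved samples, 2 lay below all controls and the other 3 among them. Sult1a1 differed by 0.02 (SE 0.16) from low-risk and by -0.12 (SE 0.15) from vehicle livers. In all, 3 of 4 testable sulfotransferases differed between uninvolved and low-risk livers, where 52.4% of 16338 genes did. Sult1e1 is among the 3 and was testable mainly through the uninvolved samples, so nothing is read from that count. Between uninvolved and vehicle livers 2 of 4 differed, where 57.7% of genes did. In both comparisons a member's call alone sets it little apart from the genes at large. Low-risk and vehicle livers at 10 months differed in 0 of 4 (0% of genes; edgeR, 688 genes had an unadjusted p under 0.05, and DESeq2 called 0), with -0.10 (SE 0.48) for Sult2a8, -0.30 (SE 0.23) for Sult1d1, -0.15 (SE 0.15) for Sult1a1 and -2.87 (SE 1.20) for Sult1e1.

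The cholangiocyte sum was 119 to 269 CPM in uninvolved samples and 36.0 to 53.6 CPM in low-risk livers, and all 6 of its genes were higher, with Epcam at 2.20 (SE 0.26, adjusted p = 5.86e-06). The hepatocyte sum was 101300 to 123200 CPM in uninvolved samples and 122900 to 128100 CPM in low-risk livers. Their part in the sulfotransferase differences was not tested. Of 12 donor genes 6 were lower than in low-risk livers, among them Impad1, which clears the spent donor (-0.60, SE 0.11, adjusted p = 0.000268), and of 15 regulators 8 were lower, among them Ppara (-0.95, SE 0.11, adjusted p = 3.1e-06) and Ghr (-0.85, SE 0.13, adjusted p = 4.99e-05), and Cux2 was higher (1.31, SE 0.52, adjusted p = 0.0432). The male-biased list had 8 of 12 genes lower and 1 higher, with Hsd3b5 at -4.71 (SE 0.47, adjusted p = 2.17e-06), and 3 of 7 female-biased genes were higher. Of all genes tested, 24.7% were lower and 27.7% higher. Genes low in low-risk livers may have passed the filter on low counts through the uninvolved samples. Nothing is therefore read from the female-biased and cholangiocyte counts.

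Tumors held 35.2 to 344 CPM of Sult2a8 (median 101, n = 7), below every vehicle liver (1.58% of genes), and the log2 difference was -2.81 (SE 0.50, adjusted p = 0.000527). Sult1e1 ranged from 1.67 to 12.5 CPM in tumors and was higher than in vehicle livers by 2.73 (SE 0.86, adjusted p = 0.0191), a call lost when the vehicle library labelled as a tumor was counted as vehicle (2.05, adjusted p = 0.0873) and with no filter on low counts (2.72, adjusted p = 0.0616). Here 2 of 4 sulfotransferases were called, and 45.9% of 15293 genes, with Sult1e1 again testable mainly through the group where it was high. Sult1d1 differed by -0.35 (SE 0.16, adjusted p = 0.0833) and Sult1a1 by -0.23 (SE 0.20, adjusted p = 0.359). All 6 cholangiocyte markers were higher in tumors than in vehicle livers, as were 24.8% of all genes, with sums of 148 to 871 CPM against 34.98 to 50.8 CPM. Markers low in vehicle livers may have passed the filter on low counts through the tumors, so nothing is read from this count.

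Between tumor and uninvolved liver 0 of 4 sulfotransferases were called, where 18.1% of 16362 genes were (edgeR; 5708 genes had an unadjusted p under 0.05, and DESeq2 called 2 of the 4 sulfotransferases). Sult2a8 differed by -0.15 (SE 0.70), Sult1e1 by 0.84 (SE 0.59), Sult1a1 by -0.15 (SE 0.21) and Sult1d1 by 0.67 (SE 0.24, adjusted p = 0.0661). Of the tumors, 6 share a mouse number with an uninvolved liver. With the mouse as a block, Sult1d1 was higher in tumors by 0.92 (SE 0.16, adjusted p = 0.0128), and it was higher in 6 of 6 mice: 144 against 96.3 CPM in mouse 1, 122 against 46.5 in mouse 3, 128 against 105 in mouse 5, 124 against 44.8 in mouse 6, 166 against 120 in mouse 7 and 113 against 42.3 in mouse 12. Because uninvolved livers 3 and 6 were nearly the same library, the block was also fitted without mice 3 and 6, and Sult1d1 was higher by 0.69 (SE 0.15, adjusted p = 0.0275). Sult2a8 was higher in the tumor in 4 mice and lower in 2, Sult1e1 higher in 4 and lower in 2, and Sult1a1 higher in 2 and lower in 4. In all these mouse counts, mice 3 and 6 stand apart though their uninvolved livers were counted as 1 sample elsewhere. Both had more Sult2a8 in the tumor (40.4 against 17.5 CPM and 233 against 16.8 CPM). Both also had more Sult1e1 there (3.51 against 0.668 CPM and 2.41 against 0.564 CPM). Sult1a1 was higher in the tumor of mouse 3 and lower in that of mouse 6.

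**Figure D4:**
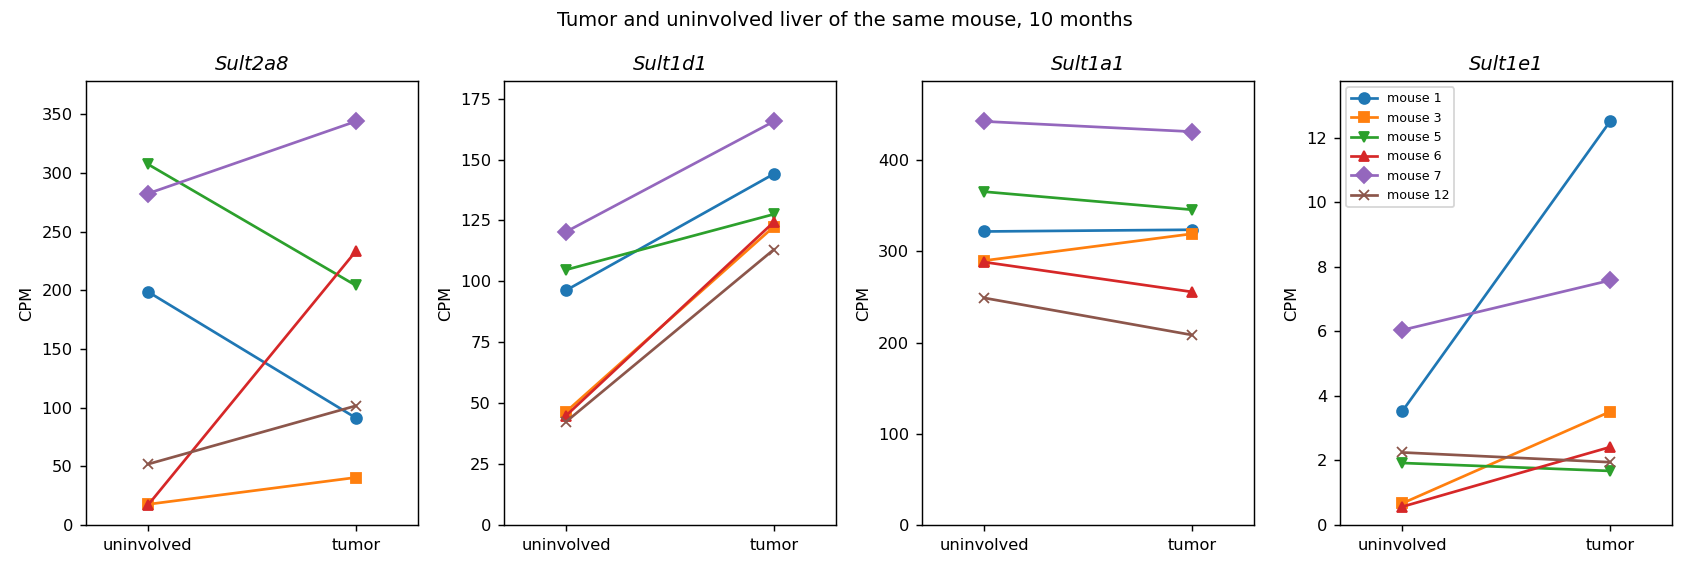
CPM of Sult2a8, Sult1d1, Sult1a1 and Sult1e1 in uninvolved liver and tumor (horizontal axis) of the same mouse, joined by a line, for 6 mice; the vertical axis is linear from 0. Sult1d1 rises along all 6 lines, to between 113 and 166 CPM, and the Sult2a8 lines go both ways. The uninvolved livers of mice 3 and 6 were nearly the same library, so their lines are not independent.

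Sult2a1, Sult2a2 and Sult2a5 were near 0 at 10 months and were not tested. Sult2a1 was at most 0.072 CPM in vehicle, 0.0333 in low-risk and 0.0394 in uninvolved livers, and 0.0389 to 0.613 CPM in tumors, where tumor 6 held 16 counts. By pooled counts Sult2a1 was 9.45-fold higher in tumors than in uninvolved samples (3.32 to 37.0, from 29 and 4 counts) and 6.90-fold higher than in vehicle livers (2.42 to 27.0, 29 and 4 counts), and it was higher in the tumor in 5 of 6 mice. Sult2a2 ranged from 0.0358 to 0.115 CPM in tumors and from 0 to 0.0262 CPM in uninvolved samples, without overlap, and was higher in the tumor in 6 of 6 mice. Of the genes tested, 3.61% separated upward, but Sult2a2 was not among those tested. Tumor libraries were shallower (22.5 to 27.9 M counts) than uninvolved libraries (34.8 to 44.6 M). With so few counts, depth alone can set the order within a mouse. Nothing is therefore read from the lack of overlap or from the mouse counts of Sult2a1 and Sult2a2. The pooled ratio of Sult2a2 was 4.34 (1.12 to 24.6, from 10 and 3 counts) against uninvolved samples and 3.17 (0.817 to 17.9) against vehicle livers. Sult2a5 had 0 counts in all 5 low-risk livers and at most 0.0766 CPM elsewhere. These intervals cover counting error only, on a few reads per library.

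Whether the high-risk difference from low-risk livers itself changed from 5 to 10 months was tested as an interaction, and 0 of 4 sulfotransferases passed (0.448% of 16084 genes did). The change was 0.39 (SE 0.98) for Sult2a8, 3.63 (SE 1.64, adjusted p = 0.369) for Sult1e1, 0.40 (SE 0.28) for Sult1a1 and 0.26 (SE 0.32) for Sult1d1. Low-risk livers of batch 1 did not differ between 5 and 10 months in any of 3 genes (0% of 14654 genes; edgeR, 1123 genes had an unadjusted p under 0.05, and DESeq2 called 51), with 0.08 (SE 0.16) for Sult2a8, 0.12 (SE 0.14) for Sult1a1 and -0.11 (SE 0.15) for Sult1d1.

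Across the 9 groups with more than 1 sample, the order of the means was as follows. Sult2a8 was highest in 10-month vehicle (878 ± 121 CPM) and low-risk livers (863 ± 125), followed by 5-month low-risk (636 ± 167) and vehicle livers (447 ± 267), uninvolved livers (171 ± 132), 3-week vehicle (160 ± 44.0), tumors (150 ± 114), 3-week TBT (128 ± 66.7) and 5-month high-risk livers (96.1 ± 155). The mean ± SD ranges of neighbours in that order overlap throughout. Sult1d1 was highest in 3-week vehicle (199 ± 44.5) and TBT livers (193 ± 66.4), followed by 5-month low-risk (144 ± 51.5), 10-month vehicle (136 ± 29.9), tumors (130 ± 18.7), 10-month low-risk (116 ± 13.7), 5-month vehicle (100.5 ± 37.2), high-risk (87.8 ± 25.7) and uninvolved livers (81.9 ± 35.7), and neighbours overlap in the same sense. Sult1a1 was at 423 ± 60.6 and 413 ± 65.8 CPM in 3-week TBT and vehicle livers and between 272 ± 91.9 and 334 ± 74.5 CPM in the 7 adult groups, again with overlap between neighbours.

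The genes most like each sulfotransferase were ranked by Spearman's rho of log2(CPM + 0.5) over all 73 samples among 12143 genes, samples that share ages and batches. For Sult2a8 these were Hsd3b5, a male-biased steroid dehydrogenase (0.938), and Cyp2c50 (0.927), the highest values for any of the 8 genes. Among the genes most like Sult2a1 was Cyp2b13 (0.708), among those most like Sult2a2 was Gstp3 (0.673), and for Sult2a5 they were Cyp3a16 (0.752) and Cyp2b13 (0.737). Sult1d1 was most like Spp2 (0.743) and Akr1c20 (0.722), Sult1a1 like Retreg1 (0.717) and Cdip1 (0.688), Sult1e1 like Mrpl42 (0.711) and Trdmt1 (0.692), and Sult3a1 like A1bg (0.532) and Cyp3a16 (0.427). Many of the samples hold 0 counts of Sult2a1, Sult2a2, Sult2a5 and Sult3a1, which limits what a rank over them can show.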

How the data were processed

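The authors deposited 1 table of whole-number counts per gene for all libraries. Per the submitters' processing notes, reads were handled with Trim Galore, HISAT2 and featureCounts on mm10, and per the file name the deposited counts were adjusted with ComBat-seq; its settings, the annotation and the strand setting are not given in the sources used here. Adjusted counts can differ from the reads, and without a strand setting Sult1a1 and Sgf29 may share reads. Libraries were Illumina TruSeq Stranded Total RNA, per the labels' protocols. All 55536 gene IDs matched GENCODE M21.

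CPM is the count scaled to the library's total. Comparisons used edgeR 4.0.16 (R 4.3.3; TMM, filterByExpr, robust quasi-likelihood F test, Benjamini-Hochberg adjustment over all genes tested, threshold 0.05), and at 5 months the sequencing batch was a covariate. Standard errors are the fold change over the square root of F. DESeq2 1.42.0, no filter, leaving out libraries and replicate blocks were alternatives. The code was tested on simulated counts. The 8 genes and all lists were chosen with earlier results of these data known. The 8 genes were named in every comparison, with up to 2 genes per list and direction and the 2 genes most like each member. Intervals and floors of 3 counts cover counting error only.

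Mouse numbers pair tumor and uninvolved liver of 1 animal. Same-mouse correlations of deviations ranged from -0.412 to 0.718 (median 0.076, 6 pairs). In other comparisons the samples share only a number. Some genes that the naming rule selects are not reported here.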

Additional observations from a re-analysis of the deposited data

Results flagged for a closer look

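In groups of 4 to 10 samples, a sample was picked out where its gap to the nearest other, over the group's range, passed Dixon's 95% critical value. Chance does this in about 1 in 20 groups, and 47 groups were checked. High-risk 10 (5 months) stood out in Sult2a1 at 92.2 CPM (next highest 26.6), in Sult2a2 at 45.3 CPM (10.8), in Sult2a5 at 30.6 CPM (0.022) and in Sult3a1 at 1.03 CPM (0.044). High-risk 1 stood out in Sult1e1 at 16.5 CPM (4.37). Vehicle 9 at 5 months held 1.41 CPM of Sult3a1, from 4 counts. At 3 weeks, TBT 8 held 1.23 CPM of Sult3a1 (0.285) and TBT 6 336 CPM of Sult1d1 (205). At 10 months, vehicle 7 held 1110 CPM of Sult2a8 (887) and vehicle 2 held 2.87 CPM of Sult1e1 (0.324). Tumor 6 held 0.613 CPM of Sult2a1 (0.143, 16 counts) and 0.805 CPM of Sult3a1 (21 counts).

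The vehicle library labelled as a tumor is a single sample, was in no main comparison and had over 10% mitochondrial counts. It held more than the highest of the 6 vehicle livers in Sult2a1 (0.434 CPM from 5 counts, against 0.072), Sult2a2 (0.348 CPM from 4 counts, against 0.036) and Sult1e1 (4.17 CPM from 48 counts, against 2.87).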

How the results depend on the processing

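Under all alternatives run, Sult2a8 kept its calls for age in TBT livers (2.54 to 2.89), high-risk against low-risk at 5 months (-5.21 to -2.31), uninvolved against low-risk and against vehicle livers and tumor against vehicle. High-risk against vehicle at 5 months was the least stable: 1 sulfotransferase was called with no filter on low counts (1211 genes), with no batch covariate and without the deviating libraries, and 0 in batch 1 only (0 genes) or with the replicate block (0 genes). High-risk against low-risk in batch 1 only gave 773 genes and 1 sulfotransferase, with 9 livers.

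Low-risk against vehicle at 5 months called 78 genes by DESeq2, 20 with no batch covariate and 1 without deviating libraries, and 1 at 10 months with the replicate block. The 3-week comparison called 3 genes with no filter. With the vehicle tumor library moved into the vehicle group there were 6019 genes called for uninvolved and 4206 for tumor against vehicle, with 1 sulfotransferase in the latter, as with no filter. The replicate block gave 4123 genes there. Tumor against uninvolved liver called 4967 genes and 2 sulfotransferases by DESeq2, 1889 and 1 with the replicate block by mouse, and 1 with that block without mice 3 and 6, with no filter, or with uninvolved livers 3 and 6 separate. DESeq2 called 51 genes between 10 and 5 months in low-risk livers. The interaction called 4 genes with no filter, 262 by DESeq2 and 122 with livers 3 and 6 separate. The causes were not tested.

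Directions reversed, none past the threshold, for Sult1d1 at 3 weeks (0.0134, replicate block), Sult1a1 in low-risk against vehicle at 5 months (0.0670, no batch covariate), high-risk against vehicle (0.16, block), uninvolved against vehicle (0.00158, block), tumor against vehicle (0.0241, block) and uninvolved against low-risk livers (-0.0147 with no filter, -0.00976 with livers 3 and 6 separate), and for Sult2a8 in 10-month low-risk against vehicle (0.10, vehicle tumor library counted) and tumor against uninvolved (0.64, block; 0.0762, separate). With 1 sample left out, counts of called genes ranged from 1580 to 3948 (tumor against uninvolved; 3602 without uninvolved 12 and 3948 without the summed 3 and 6), 1373 to 4264 (high-risk against vehicle), 0 to 3 (low-risk against vehicle, 5 months), 0 to 1 (low-risk, 10 against 5 months) and 2975 to 4521 (age). Counts of called sulfotransferases ranged from 0 to 1, 0 to 3, 0 to 0, 0 to 0 and 6 to 7 in the same order, and from 2 to 3 in high-risk against low-risk, uninvolved against vehicle and tumor against vehicle. Log2 differences reversed within -0.0848 to 0.10 (Sult1a1, uninvolved against low-risk), -0.24 to 0.00598 (Sult1a1, uninvolved against vehicle), -0.19 to 0.0526 (Sult1d1) and -0.37 to 0.00953 (Sult2a5) at 3 weeks, -0.57 to 0.18 (Sult2a8, tumor against uninvolved) and -0.00462 to 0.17 (Sult2a8, low-risk 10 against 5 months). Leaving out single samples was not run for the interaction.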
